A study of Mus musculus with 4 samples.

Results

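The lysosome is the acidic compartment in which cells break down proteins, glycans, glycogen and lipids that reach it by endocytosis or autophagy. Its soluble hydrolases are made in the endoplasmic reticulum, carried to the lysosome mostly by mannose 6-phosphate receptors and held behind a membrane rich in heavily glycosylated proteins such as LAMP1 and LAMP2. TFEB is a transcription factor that activates many genes of this compartment through a short palindromic promoter element, and liver holds large lysosomal pools in hepatocytes and in Kupffer cells, the resident macrophages. The genes described here are 35 lysosomal hydrolases, activators, membrane proteins and the regulator Tfeb, taken from a fixed list of symbols. That list was chosen with earlier results of these data known. Of the 35, 33 were measured by 61 of the 22626 probe sets used, and Arsb and Cd63 were not analysed here. The probe set with the highest mean over the arrays stood for a gene, as it did for each of the 12393 named genes.

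Liver RNA came from male mice aged 12 to 20 weeks, either wild-type (129S1/SvImJ) or PPARα-null (129S4/SvJae). They ate chow with 0.1% w/w Wy14643, a synthetic agonist of the nuclear receptor PPARα, or unsupplemented chow, for 5 days. RNA was pooled within each of the 4 groups and hybridized to 1 Affymetrix MOE430A array per group, so no ratio below has a replicate check and no test over mice was possible. The design gives 5 mice per group, although the sources differ on how many entered a pool. Null allele and substrain cannot be told apart. Ppara itself had an intensity of 847 in wild-type control and 1250.1 in wild-type Wy14643 liver, against 326 and 428 in PPARα-null liver on the same diets. All 10 hepatocyte markers measured were above background, with summed intensities of 81960.4 to 90831.

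Values are GCRMA intensities in arbitrary units, compared for one gene across arrays and never between genes. Genes were called higher or lower from a 1.5-fold difference upwards, 0.58 on the log2 scale. An intensity of 12.2, the 90th percentile of 67 probe sets of genes silent in liver, served as background. The mean log2 intensity lay above it for 32 of the 33 measured genes and for 7556 of all named genes, the sets counted below. Only Galns, the sulfatase that acts on keratan sulfate, stayed out, with intensities of 8.57 to 10.5. The log2 ratios of the 7556 genes had a standard deviation of 0.87 between the diets in wild-type and 0.32 in PPARα-null mice, 0.98 between the genotypes on Wy14643 and 0.33 between them on the control diet.

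On Wy14643, lysosomal genes of wild-type liver differed from the control diet in both directions, with more of them lower. Of the 32 genes, 10 (31.2%) were lower by 1.5-fold or more and 5 (15.6%) higher than on the control diet, against 16.0% lower and 14.4% higher among all 7556 genes. The share that was higher thus lay close to that of all genes, while the share that was lower was larger. Their median log2 ratio was -0.27, with 22 below 0, beside a median of 0.00 for all genes. The higher genes were Arsa, Scarb2, Gaa, Manba and Psap. The lower ones were Ctss, Ctsa, Ctsc, Neu1, Ctsh, Ctsz, Gusb, Lamp2, Lamp1 and Ppt1. The wild-type Wy14643 array was the lowest of the 4 arrays for 22 of the 32 genes and the highest for 8. That count was not made over all genes. Their log2 ratios were also widest in the comparisons with this array (standard deviations 0.87 and 0.98, against 0.32 and 0.33). Wide ratios with this array were thus not particular to lysosomal genes. Whether 22 lowest against 8 highest is usual among all genes cannot be read from these spreads.

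In PPARα-null liver hardly any of these genes passed 1.5-fold on Wy14643. Gusb alone was lower (1 of 32, 3.12%) and 0 were higher, beside 4.30% lower and 2.17% higher among all genes. The median log2 ratio was 0.10, and the ratios ran from -0.67 to 0.43. Gusb was also the one gene, among the 15 past 1.5-fold in wild-type mice, to pass in both genotypes, in the same direction. The difference between the log2 ratios of the genotypes was below 0 for 21 of the 32 genes (median -0.27) and for 3774 of the 7556 genes (median 0.00). With 1 array per group this difference could not be tested.

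**Figure D1:**
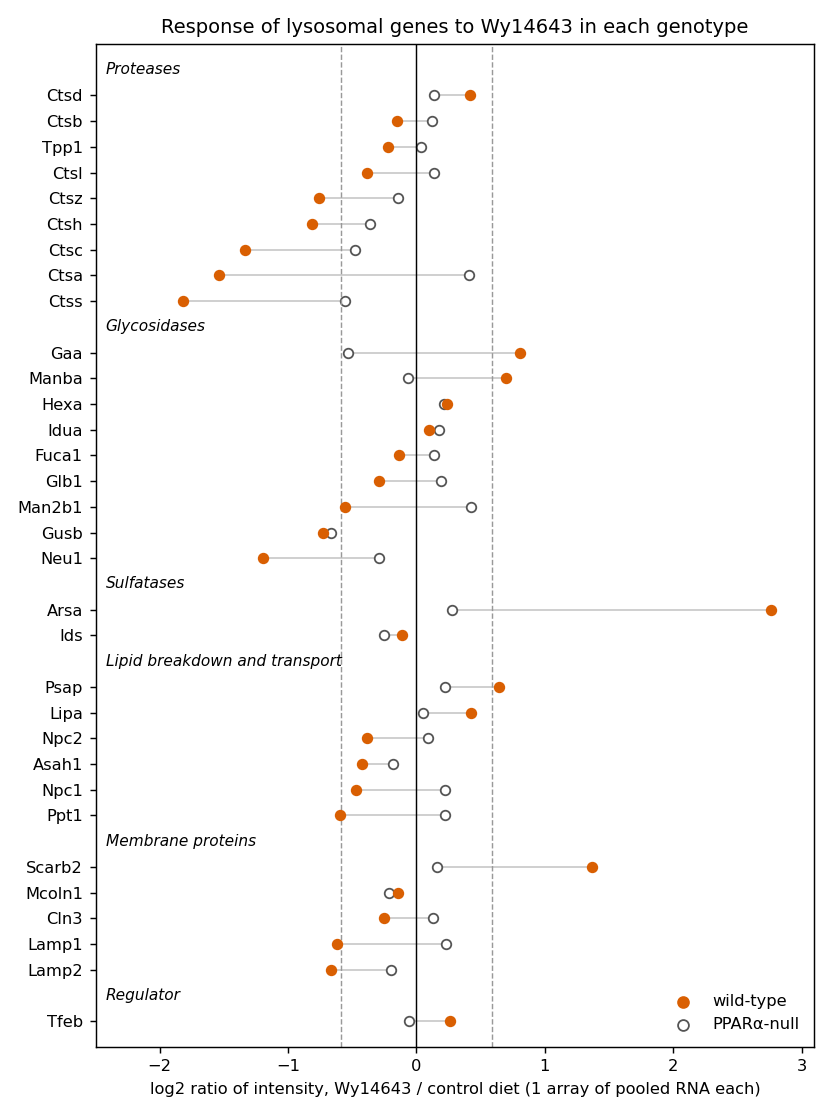
Log2 ratio of intensity on Wy14643 to that on the control diet for the 32 lysosomal genes above background, grouped by role, in wild-type (filled) and PPARα-null (open) liver, 1 array of pooled RNA per group. Dashed lines mark 1.5-fold. Arsa stands farthest to the right at 2.76 and Ctss farthest to the left at -1.82, both in wild-type liver, while the PPARα-null values stay between -0.67 and 0.43.

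Promoters of these genes are shown because the palindromic element bound by TFEB, here searched as TCACGTG on either strand, is the sequence best known to tie lysosomal genes together. Windows reaching from 250 bases before to 50 after the start site were read from RefSeq (GRCm38.p6) for 30 of the 35 genes; Ctsb, Ctsh, Galns, Asah1 and Npc1 had no entry. TCACGTG lay in the windows of 8 of these 30 genes (26.7%), against 4.29% of 27025 genes in the table. CACGTG, which TCACGTG contains, was found for 9 of the 30 (30%) and for 8.09% of all genes, with 4 matches in the Lamp1 window. The 4 stretches of 30 bases, from genes on either side of the Wy14643 response, that follow have TCACGTG in capitals.
Arsa (higher on Wy14643 in wild-type liver), chr15:89477424-89477453, minus strand: ttcaactcagtgTCACGTGttgtctgctcc
Gaa (higher), chr11:119267810-119267839, plus strand: ttttctgtgcgaTCACGTGtttgactctga
Ctsa (lower), chr2:164833748-164833777, plus strand: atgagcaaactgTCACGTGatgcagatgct
Lamp1 (lower), chr8:13159133-13159162, plus strand: cacgtgaccacaTCACGTGcggaacggagc

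The element thus occurred in genes that went both ways. Its first base lay 17 bases before the start site in Arsa, 141 in Gaa, 13 in Ctsa and 16 in Lamp1. Of the 8 genes with TCACGTG, 2 were higher on Wy14643 in wild-type liver, 2 lower and 4 between (Ctsd, Glb1, Cln3 and Mcoln1; median log2 ratio -0.20). Of the 20 measured genes whose windows lacked it, 3 were higher, 7 lower and 10 between (median -0.30). Among all genes 14.4% were higher and 16.0% lower, and counts from 8 and 20 genes do not set these groups apart. AGGTCA, the unit that PPAR response elements repeat, occurred at least once in the windows of 8 of the 30 genes (26.7%) and of 18.1% of all genes. Its exact direct repeat with a spacer of 1 base occurred in 0 of the 30 and in 0.0481% of all genes. A match in these letters is no evidence of binding, and distant sites were not searched.

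Arsa showed the largest shift among the lysosomal genes. It encodes arylsulfatase A, which removes sulfate from the myelin lipid sulfatide. Its intensity was 43.5 in wild-type control, 295 in wild-type Wy14643, 41.8 in PPARα-null control and 50.5 in PPARα-null Wy14643 liver. The wild-type Wy14643 array thus stood alone, 6.78-fold above the wild-type control and 5.84-fold above PPARα-null liver on the same diet. In PPARα-null mice the 2 diets differed 1.21-fold. The gene has 1 probe set, above background on all 4 arrays. Filters, raising values to background and choices among probe sets thus could not change its ratio in wild-type mice. Adding 32 to every intensity, median centring and cyclic loess could, and the ratio stayed between 2.11 and 2.79 on the log2 scale. The other sulfatase counted, Ids, which starts the breakdown of dermatan and heparan sulfate, was dim and varied little (16.8 to 20.7).

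Psap encodes the precursor of the saposins, small proteins that present sphingolipids to their hydrolases, among them sulfatide to arylsulfatase A. Its brighter probe set read 1614 in wild-type control, 2524 in wild-type Wy14643, 1471 in PPARα-null control and 1719 in PPARα-null Wy14643 liver. That is a 1.56-fold difference on Wy14643 in wild-type mice and a 1.17-fold one in PPARα-null mice. The dimmer probe set read 315, 759, 294 and 187 on the same arrays, with log2 ratios of 1.27 in wild-type and -0.65 in PPARα-null mice. The probe sets thus had the same direction in wild-type liver and opposite directions in PPARα-null liver.

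Scarb2 encodes LIMP-2, a membrane protein that carries β-glucocerebrosidase to the lysosome. Its intensity was 691 in wild-type control and 1786 in wild-type Wy14643 liver, against 767 and 856 in PPARα-null liver. Wy14643 and control diet thus differed 2.58-fold in wild-type mice and 1.12-fold in PPARα-null mice. A dimmer probe set gave a log2 ratio of 1.54 in wild-type and 0.08 in PPARα-null mice, so both probe sets separated the wild-type Wy14643 array from the other 3.

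The remaining membrane proteins did not follow Scarb2. Lamp1, a main structural glycoprotein of the lysosomal membrane, read 3028 in wild-type control, 1971 in wild-type Wy14643, 2781 in PPARα-null control and 3261 in PPARα-null Wy14643 liver. It was 1.54-fold lower on Wy14643 in wild-type mice, just past the threshold, and stood at a log2 ratio of 0.23 in PPARα-null mice. Lamp2, its relative that also takes part in chaperone-mediated autophagy, read 4833, 3041, 5286 and 4606 on the arrays in the same order, 1.59-fold lower on Wy14643 in wild-type mice. Its 3 further probe sets gave log2 ratios of -0.25, -0.48 and -0.95, all below 0, with only the last past 1.5-fold. Cln3, a membrane protein lost in juvenile Batten disease, and Mcoln1, the calcium channel mucolipin-1, were dim and stood at -0.25 and -0.14 in wild-type mice. The second Mcoln1 probe set, near background, gave 0.54.

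**Figure D2:**
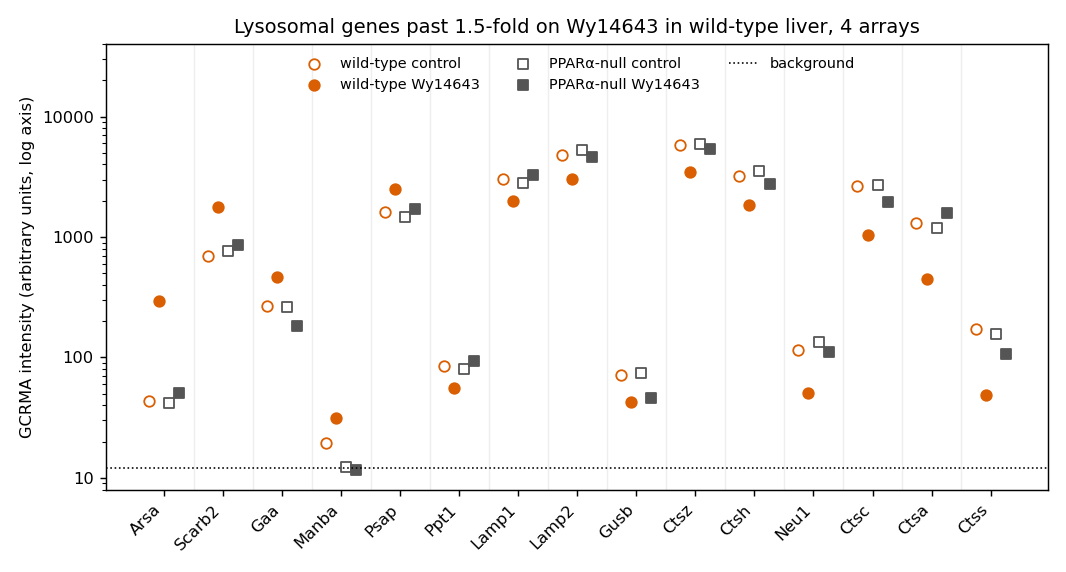
GCRMA intensity (log axis, arbitrary units) of the 15 lysosomal genes past 1.5-fold on Wy14643 in wild-type liver, on the 4 arrays of pooled RNA. Filled circles (wild-type Wy14643) lie above the other 3 symbols for Arsa, Scarb2, Gaa, Manba and Psap and below them for the other 10 genes; for Gusb the PPARα-null Wy14643 array (46.5) lies close to it (43.1).

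Proteases made up the largest block of lower genes. Of the 9, 5 (55.6%) were lower on Wy14643 in wild-type liver and 0 higher (median log2 ratio -0.76). Among all genes 16.0% were lower and 14.4% higher. In PPARα-null liver 0 of the 9 passed 1.5-fold either way (median 0.04), beside 4.30% lower and 2.17% higher among all genes. Ctsa, the serine carboxypeptidase cathepsin A that also shields β-galactosidase and neuraminidase 1, read 1311 in wild-type control and 451 in wild-type Wy14643, but 1186 and 1575 in PPARα-null liver. On Wy14643 it was thus 2.91-fold lower in the wild-type pool, and in the PPARα-null pool 1.33-fold higher. Ctss, the cysteine protease cathepsin S of antigen-presenting cells, read 172 and 48.7 in wild-type liver and 157 and 107 in PPARα-null liver. It was lower on Wy14643 in both genotypes, 3.53-fold and 1.47-fold, so only the wild-type ratio passed.

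Ctsc, the dipeptidyl peptidase that activates granule serine proteases, followed the same order. It read 2640.0 on the control diet and 1043 on Wy14643 in wild-type mice, and 2722 and 1958 in PPARα-null mice, which gives log2 ratios of -1.34 and -0.48. Ctsh, an aminopeptidase, read 3215 and 1828 against 3547 and 2766 (-0.81 and -0.36). Ctsz, a carboxypeptidase, read 5858 and 3458 against 5924 and 5365 (-0.76 and -0.14), and its further probe sets gave -0.77 and -0.61 in wild-type mice. The other cathepsins lay closer to 0: Ctsl stood at -0.38, Ctsb at -0.15 and Ctsd, the main aspartic protease, at 0.42, with the tripeptidyl peptidase gene Tpp1 at -0.22. Ctsb had 3 further probe sets, and the 2 dimmest of them gave -0.70 and -0.80, where the brightest pair gave -0.15 and -0.32.

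Glycosidases divided evenly, with 2 of 9 higher, 2 lower and 5 between on Wy14643 in wild-type liver (median log2 ratio -0.14). The shares of 22.2% either way stand beside 14.4% higher and 16.0% lower among all genes. With 9 genes they do not set glycosidases apart. Gaa, the acid α-glucosidase that degrades glycogen in the lysosome, read 266 in wild-type control, 465 in wild-type Wy14643, 262 in PPARα-null control and 181 in PPARα-null Wy14643 liver. On Wy14643 the wild-type pool was 1.74-fold higher and the PPARα-null pool 1.44-fold lower, and the second probe set gave log2 ratios of 0.72 and -0.19. Manba, which cleaves terminal mannose from glycoprotein remnants, was close to background, at 19.3, 31.3, 12.2 and 11.7 on the arrays in the same order. Wild-type Wy14643 liver exceeded wild-type control liver 1.62-fold and PPARα-null Wy14643 liver, which was below background, at least 2.57-fold. On the control diet the genotypes differed 1.58-fold, with the wild type higher, the one lysosomal gene past 1.5-fold there.

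Neu1, the sialidase that works in a complex with cathepsin A and β-galactosidase, read 115 in wild-type control, 50.4 in wild-type Wy14643, 135 in PPARα-null control and 110.5 in PPARα-null Wy14643 liver. It was 2.29-fold lower on Wy14643 in wild-type mice and stood at a log2 ratio of -0.29 in PPARα-null mice. That call rests on 1 probe set, since the others lie near background and gave 0.09 and -0.20. Glb1, the β-galactosidase of the complex, was dim and stood at -0.29. Gusb, β-glucuronidase, read 71.2 and 43.1 in wild-type and 73.9 and 46.5 in PPARα-null liver, log2 ratios of -0.73 and -0.67. Its second probe set, near background, gave -0.29 and -0.81, so only the PPARα-null ratio passed by both. Man2b1, lysosomal α-mannosidase, lay just under the threshold at -0.56 in wild-type mice, with 0.43 in PPARα-null mice, while its second probe set, at background, gave -0.08 and 0.03. Hexa, Fuca1 and Idua, which act on gangliosides, fucosylated glycans and glycosaminoglycans, stood between -0.14 and 0.23 in wild-type mice.

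Among the 6 genes of lipid breakdown and transport, Psap was higher, Ppt1 lower and 4 between on Wy14643 in wild-type liver. The shares of 16.7% either way lay close to the 14.4% higher and 16.0% lower among all genes. Ppt1, which strips palmitate from proteins, read 85.1 and 56.3 in wild-type and 80.9 and 94.3 in PPARα-null liver, and its wild-type ratio of -0.60 lay at the threshold. The cholesterol carriers Npc1 and Npc2, which pass cholesterol out of the lysosome in turn, stood at -0.47 and -0.39. The second Npc2 probe set, nearly as bright (779 against 855 in wild-type control), gave -0.87, past 1.5-fold. The call of Npc2 thus depends on the probe set. Lipa, the acid lipase that frees cholesterol and fatty acids from lipoproteins and lipid droplets, stood at 0.42 by its brightest probe set and at -0.02 and -0.22 by the others, so its direction was not settled. Asah1, acid ceramidase, stood at -0.43. Tfeb itself was dim, at 19.3 and 23.2 in wild-type and 19.5 and 18.8 in PPARα-null liver, and did not pass 1.5-fold in any comparison.

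**Figure D3:**
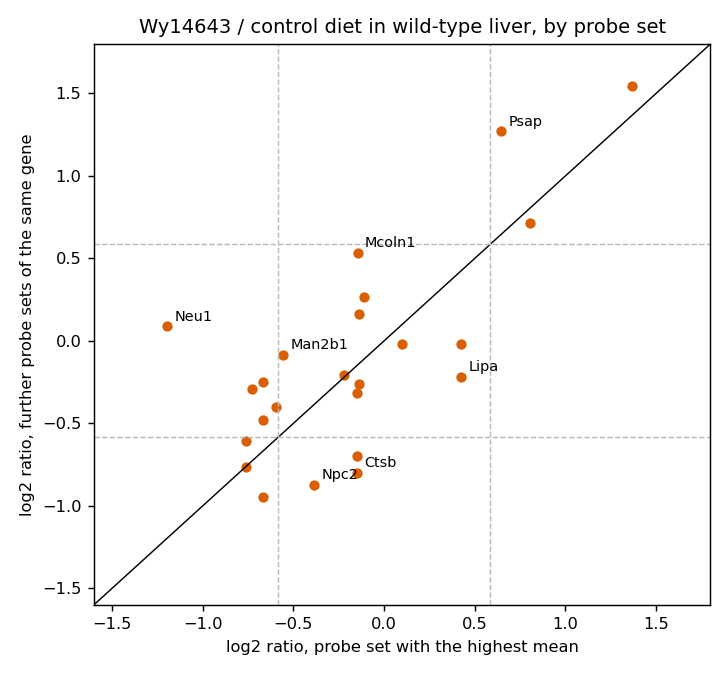
Log2 ratio between the diets (Wy14643 / control) in wild-type liver for 24 further probe sets of lysosomal genes (vertical) against the probe set with the highest mean of the same gene (horizontal), above background. Dashed lines mark 1.5-fold and the solid line equal ratios; genes are named where a further probe set differs by over 0.45. The median absolute difference was 0.34 and the largest, for Neu1, 1.28.

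Further probe sets show how far the ratios of 1 gene can differ within these arrays. They share the pooled RNA and the arrays, so they do not measure error between arrays or pools. Some also lay near background. Above background, 17 of the genes had more than 1 probe set, with 24 further probe sets in all. For genes past 1.5-fold on Wy14643 in wild-type liver, 10 of 11 such probe sets went the same way, 6 of them past 1.5-fold. The exception in direction was that of Neu1. Ratios of a gene measured by different probe sets thus differed by an amount comparable to the threshold in some cases. The ratios nearest to it were those of Ppt1 (-0.60), Lamp1 (-0.62), Psap (0.64), Lamp2 (-0.67), Manba (0.69) and Gusb (-0.73) on the inside and Man2b1 (-0.56) and Npc1 (-0.47) on the outside. Of these, Lamp1 and Psap passed under every alternative computed for them, while Ppt1, Lamp2, Manba and Gusb did not. Lamp1 has 1 probe set, so for it the median of probe sets was no check.

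The comparison that the study used, wild-type against PPARα-null liver on Wy14643, shares an array with each of the comparisons above, so its values are given side by side and not as further evidence. Of the 32 genes, 12 (37.5%) were lower in wild-type mice by 1.5-fold or more and 4 (12.5%) higher, beside 17.8% lower and 16.2% higher among all genes. The median log2 ratio was -0.36, against -0.02 for all genes. Arsa, Manba, Gaa and Scarb2 were the higher genes. Psap lay just under the threshold at 0.55 by its brighter probe set and past it at 2.02 by the dimmer. Ctsa was 3.50-fold, Ctss 2.19-fold, Neu1 2.19-fold, Man2b1 2.01-fold and Ctsc 1.88-fold lower, followed by Ppt1, Lamp1, Npc1, Ctsl, Ctsz, Lamp2 and Ctsh at 1.51-fold to 1.67-fold. Of these 16 calls, 9 held under every alternative computed for them, and those of Ctsh, Ctsz, Man2b1, Neu1, Manba, Ppt1 and Lamp2 did not. For genes with 1 probe set, such as Ctsa, Arsa and Npc1, the median of probe sets could not change the ratio. The second Man2b1 probe set gave -0.10. Npc2 was not called at -0.39, while its second probe set gave -1.05. Ctsl (-0.67), Npc1 (-0.68) and Man2b1 passed here but not against the wild-type control, where PPARα-null liver stood at log2 ratios of 0.14, 0.22 and 0.43 between the diets, under the threshold.

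Without the agonist the genotypes differed little in these genes. On the control diet 1 of 32 (3.12%), Manba, was past 1.5-fold with the wild type higher, and 0 with the wild type lower, beside 2.34% higher and 2.37% lower among all genes. The median log2 ratio was -0.02, and after Manba the largest difference was that of Mcoln1 (-0.43). Arsa (0.06), Gaa (0.02), Ctsa (0.14) and Ctss (0.13), which separated on Wy14643, stood close together on the control diet.

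Other lysosomal genes, from lists of the same compartment, went both ways as well. Of 19 further hydrolases and activators above background, Wy14643 left 3 higher (15.8%), 6 lower (31.6%) and 10 between in wild-type liver (median log2 ratio -0.22). In PPARα-null liver 0 were higher and 3 lower (15.8%). Among all genes 14.4% were higher and 16.0% lower in wild-type liver, and 2.17% and 4.30% in PPARα-null liver. Hgsnat, an acetyltransferase of heparan sulfate breakdown, was 5.24-fold lower in wild-type mice. Gm2a, the activator that brings ganglioside GM2 to β-hexosaminidase, was 4.16-fold lower, and Naglu, another enzyme of heparan sulfate breakdown, at least 2.19-fold lower, being below background on Wy14643. Dpp7, a dipeptidyl peptidase, was 3.29-fold higher. In PPARα-null liver the log2 ratios of these 4 genes were -0.52, -0.10, -0.85 and 0.52. Of 12 further membrane proteins, 1 was higher (8.33%) and 4 lower (33.3%) in wild-type liver (median -0.39). In PPARα-null liver 0 were higher and 3 lower (25%, median -0.25). Lmbrd1, needed for cobalamin to leave the lysosome, was 2.92-fold higher in wild-type liver, and the channel gene Tpcn1 1.87-fold lower. In PPARα-null liver Lmbrd1 was 1.56-fold lower on Wy14643 (log2 ratio -0.64), and Tpcn1 stood at 0.21.

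Among lists of the machinery around the lysosome, 13.3% of V-ATPase, 14.3% of delivery and 10.5% of autophagy genes were higher in wild-type liver. For all genes the share was 14.4%. The shares lower were 6.67%, 9.52% and 10.5%, against 16.0% of all genes, each resting on a few genes. Of 15 subunits and accessory proteins of the V-ATPase, the proton pump that acidifies the lumen, 2 were higher on Wy14643 and 1 lower in wild-type liver (median log2 ratio 0.12). Atp6v0a2 (0.73) and Atp6v1h (0.65) were the higher ones and Atp6v1g1 (-0.69) the lower. Of 21 genes that deliver hydrolases or cargo, 3 were higher and 2 lower (median 0.04), among them M6pr, the smaller mannose 6-phosphate receptor (829 and 1307 in wild-type, 916 and 680.5 in PPARα-null liver), and the adaptor gene Gga2, at least 1.97-fold lower in wild-type liver. Of 19 autophagy genes and TFEB relatives, 2 were higher and 2 lower (median 0.04): Map1lc3a, of the LC3 family that coats autophagosomes, was 3.97-fold and Atg12, of its conjugation system, 3.57-fold higher, against Ulk1, the initiating kinase, 2.21-fold lower. In PPARα-null liver 1 V-ATPase gene was higher (6.67%), 1 delivery gene lower (4.76%) and 1 autophagy gene lower (5.26%). Among all genes 2.17% were higher and 4.30% lower there. The medians of the lists were 0.03, -0.06 and -0.18, and 15 of the 19 autophagy genes lay below 0.

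Markers of Kupffer cells, which are rich in lysosomes, were lower on Wy14643 in both genotypes. Of the 32 lysosomal genes, 10 were lower in wild-type liver and 1 in PPARα-null liver, where their median was 0.10. Of 12 markers above background, 10 were at least 1.5-fold lower on Wy14643 in wild-type liver and 9 in PPARα-null liver, with 0 higher in either (median log2 ratios -1.58 and -0.87). Among all genes 16.0% and 4.30% were lower. Between the genotypes on Wy14643, 5 of the 12 (41.7%) were lower in wild-type liver and 0 higher, beside 17.8% and 16.2% of all genes. The marker median there was -0.56 and that of the lysosomal genes -0.36. The summed intensity of the 14 measured markers was 1514 in wild-type control, 588 in wild-type Wy14643, 1916 in PPARα-null control and 1045 in PPARα-null Wy14643 liver, with Marco and Fcgr1 below background on all arrays. Vsig4, a complement receptor of Kupffer cells, stood at log2 ratios of -2.13 in wild-type and -2.23 in PPARα-null liver, and the macrophage gene Mpeg1 at -2.20 and -0.47. Laptm5 is on both the marker list and the list of further membrane proteins. In PPARα-null liver, where the markers were lower too, the 10 genes lower in wild-type liver lay on both sides of 0. Gusb (-0.67), Ctss (-0.56), Ctsc (-0.48), Ctsh (-0.36), Neu1 (-0.29), Lamp2 (-0.20) and Ctsz (-0.14) stood below 0, and only Gusb passed 1.5-fold. Ctsa (0.41), Lamp1 (0.23) and Ppt1 (0.22) stood above 0, short of 1.5-fold. Whether the lower markers have a part in the lower lysosomal genes was not tested, and in bulk RNA fewer cells of a type and less RNA per cell cannot be told apart.

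**Figure D4:**
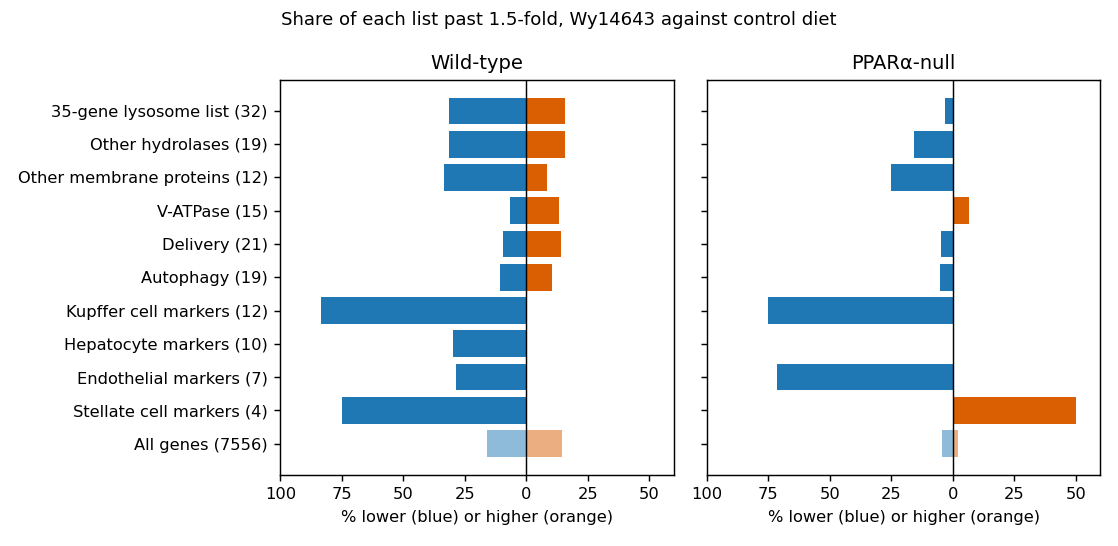
Share of genes at least 1.5-fold lower (blue, to the left) or higher (orange, to the right) on Wy14643, relative to the control diet, in each genotype, for the 35-gene lysosome list, related lists and cell type markers, with all genes at the bottom. The number of genes counted stands in parentheses. In wild-type liver 31.2% of the lysosome list was lower, against 16.0% of all genes; in PPARα-null liver 3.12%, against 4.30%.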

How the data were processed

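The authors hybridized pooled liver RNA of each group to 1 Affymetrix MOE430A array and computed probe set intensities with GCRMA (version 2.20 per the labels), which corrects background and normalizes between arrays. The deposited intensity values run from 1.55 to 31270.2 on the linear scale; which arrays were normalized together is not given in the sources used here. Groups follow titles, since the description of the wild-type Wy14643 sample repeats that of its control.

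After 64 control probe sets were left out, 22626 remained, of which 20380 carry 1 gene symbol in the platform annotation, 691 several and 1555 none. Log2 ratios between arrays were taken for 4 comparisons and called at 1.5-fold, with no test. Every listed gene is named; from the 5 further lysosome lists and 8 marker lists, at most the 4 with the largest wild-type response. Members and lists were chosen with earlier results of these data known. Background came from 48 genes not expressed in liver. The steps were tested on simulated data, and 8 alternatives were tried. Software was Python 3.11.15, pandas 2.3.3, numpy 2.4.6 and limma 3.58.1 (cyclic loess only). Precision is limited by the number of arrays.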

Additional observations from a re-analysis of the deposited data

Results flagged for a closer look

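Ctsa, Gaa and Man2b1 stood on opposite sides of 0 in the genotypes by more than 0.32, the standard deviation of the PPARα-null pair over 7556 genes: Ctsa (log2 ratio between the diets of -1.54 in wild-type and 0.41 in PPARα-null mice), Gaa (0.80 and -0.53) and Man2b1 (-0.56 and 0.43). The second probe set of Man2b1, at background, gave -0.08 and 0.03, and that of Gaa 0.72 and -0.19. The difference was not tested, since each ratio rests on 1 array per group.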

How the results depend on the processing

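Counts and medians were recomputed with no filter on dim genes, with genes above background on all 4 arrays, with values raised to background, with 32 added, with median centring, with cyclic loess, without the probe sets whose IDs end in _a_at, _s_at or _x_at, and with the median of a gene's probe sets. Without those probe sets 24 genes remained, of which 7 were lower in the wild type when both genotypes received Wy14643, and 3 were higher on Wy14643 among wild-type mice, with fewer genes counted. With 32 added, 0 genes were lower on Wy14643 in PPARα-null mice (Gusb) and 0 higher in the wild type without Wy14643 (Manba), and with genes above background on all 4 arrays, which leaves Manba out, 0 as well. The other member counts stayed within 1.5 times, and no member median moved by over 0.32; the one in PPARα-null mice went from 0.10 to -0.01 with the median of the probe sets. The median of its probe sets turned Neu1 from lower to a log2 ratio of 0.0895 between the diets in wild-type mice and of 0.0383 between the genotypes on Wy14643. Of the 15 genes past 1.5-fold on Wy14643 in wild-type liver, 10 passed under every alternative that could be computed for them; the exceptions were Gusb, Neu1, Manba, Ppt1 and Lamp2. A change of filter leaves the ratio of a gene as it is. The median of probe sets does so for genes with 1 probe set, such as Ctsa, Ctsc, Ctsh, Ctss, Arsa and Lamp1. For such genes these tallies are a weaker check than for genes with several. Between the genotypes on Wy14643, 9 of 16 did, with the exceptions of Ctsh, Ctsz, Man2b1, Neu1, Manba, Ppt1 and Lamp2. No paired analysis was possible because each group has 1 array.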

Other observations

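Markers of other cell types of liver also passed 1.5-fold. Among all genes 16.0% were lower and 14.4% higher on Wy14643 in wild-type liver, and 4.30% and 2.17% in PPARα-null liver. On Wy14643, 3 of 10 hepatocyte markers were lower in wild-type liver, led by Tat (2.93-fold) and Cps1 (2.12-fold), and 0 in PPARα-null liver. Of 7 endothelial markers, 2 were lower in wild-type and 5 in PPARα-null liver, where Clec4g was 3.65-fold and Fcgr2b 2.63-fold lower. Of 4 stellate cell markers, 3 were lower in wild-type liver, with Dcn 2.02-fold lower, and 2 higher in PPARα-null liver, with Reln 1.75-fold higher. The neutrophil genes S100a8 and S100a9 were 6.75-fold and 5.95-fold higher on Wy14643 in PPARα-null liver and stood at log2 ratios of 0.17 and -0.08 in wild-type liver. Outside the PPARα-null Wy14643 array both lay near background, at 12.9 to 17.6, so these fold sizes rest on dim values. Of 6 neutrophil genes measured, only these 2 had a mean above background. Above background were also 1 cholangiocyte marker (Sox9, 1.62-fold higher in wild-type liver), 1 lymphocyte marker (Ms4a1, 1.57-fold higher in PPARα-null liver) and 2 erythroid markers (Alas2 and Slc4a1, between the thresholds). These differences between the genotypes were not tested.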
